A study of Homo sapiens with 2 samples.

Results

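Polycomb group genes encode chromatin proteins that keep genes silent, and 35 of them were followed here on 2 Affymetrix expression arrays of LN229 cells, an established human glioblastoma line. The members were taken from a list of symbols, and a probe set was used only where the platform annotation gave it exactly 1 gene symbol. By that rule 31 of the 35 genes had a probe set, with 88 probe sets together, of 19775 genes named on the array. RNF2, BMI1, CBX8 and BAP1 had none and were not analysed here. SFMBT2 was put on the list with its difference between these arrays already known, so its values are a description. The other members and the related lists below were also chosen with earlier results of these data known.

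The first array held total RNA of LN229 cells given the plasmid pSUPER.neo-miR-127-3p, which drives the microRNA miR-127-3p, and the second held RNA of LN229 cells given the parent plasmid pSUPER.neo. Both cultures were grown in DMEM with serum and both carried a plasmid. Whether a culture was a single clone or a pool is not given in the sources used here. The question of the study was which genes miR-127-3p regulates in glioblastoma cells. With 1 array per group there was no replicate and no test, so a difference below is one between 2 arrays and its precision is limited by their number.

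Polycomb proteins work in complexes. PRC2 methylates histone H3 through EZH1 or EZH2, and PRC1 attaches ubiquitin to histone H2A through RING1 or RNF2 together with a PCGF partner. CBX proteins of canonical PRC1 bind the methylated histone, whereas variant PRC1 carries RYBP or YAF2 in place of a CBX protein. In glioblastoma, EZH2 and BMI1 are known for their part in self-renewal of tumour cells. A microRNA lowers its targets mainly by pairing of its seed, bases 2 to 8, with the transcript.

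The overexpressed microRNA is shown with its sister arm because the seed is the part that would pair with a transcript. The capitals mark the seed. Both come from the same hairpin on the plus strand of GRCh38.p14, per RefSeq, miR-127-3p at chr14:100883035-100883056 and miR-127-5p at chr14:100883001-100883022. Of 2545 mature human microRNAs in the RefSeq table, miR-127-3p alone had its seed. Transcript sequences were not used here, so pairing with the members was not examined.
miR-127-3p: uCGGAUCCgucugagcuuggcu
miR-127-5p: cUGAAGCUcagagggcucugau

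The cultures differed in markers of cell type along the same pair of arrays. The markers were chosen after their values were seen. Of 12 epithelial markers 10 had the brighter signal in control cells, and their summed signal was 7783 in miR-127-3p cells and 86429 in control cells. CLDN7 and KRT20, brighter in control cells, and GRHL2, brighter in miR-127-3p cells, lay below the array median on both arrays. The order of such signals is not reliable. EPCAM, a defining epithelial marker, gave 30.2 in miR-127-3p cells and 9181 in control cells, and KRT19, another, gave 5.64 in miR-127-3p cells and 12674 in control cells. Set against the miR-127-3p array's median signal of 83.3, EPCAM was at least 109.7-fold and KRT19 at least 151-fold lower. Of 12 glial and glioma markers 4 were brighter in miR-127-3p cells and 8 in control cells, with summed signals of 88379 in miR-127-3p cells and 85831 in control cells. VIM and CD44 made up most of that sum, VIM with 48866 in miR-127-3p cells and 45584 in control cells. GFAP and CHI3L1 lay below the array median on both arrays. SOX9, SOX2 and NES were over 2-fold lower, at log2 ratios of miR-127-3p over control of -1.63, -1.24 and -1.03. SLC1A3, a glial glutamate transporter, gave 2689 in miR-127-3p cells and 73.9 in control cells, at least 28.1-fold higher against the control array's median. The part of these marker differences in the values of SFMBT2 and the other members was not tested.

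Polycomb group genes other than SFMBT2 stayed within 2-fold at their brightest probe set between the miR-127-3p and control arrays. All 31 genes passed the filter on dim signals, which asked for a mean log2(signal + 1) over the array-wide median, a signal of about 83.0. For each gene the brightest such probe set was used, and the log2 ratio is miR-127-3p minus control after the median over all genes was subtracted. Of the 31 genes, 1 was at least 2-fold higher, or 3.23%, against 5.06% of all 11985 genes. That gene was SFMBT2, listed with its difference already known, so nothing is read from the higher share. None was at least 2-fold lower, against 8.67% of all genes. That share depends on the filter: with one at the 75th percentile, 1 of 28 members and 387 of 7824 genes were lower. At 1.5-fold, 8 members were lower, or 25.8%, against 18.1% of all genes, and SFMBT2 alone was higher, or 3.23%, against 14.5%. The members' median log2 ratio was -0.19, and that of all genes was 0 by centring. Ratios lay below 0 for 20 of the 31 members.

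The error of a ratio could be judged only within the arrays, from probe sets of the same gene. Their log2 ratios had a standard deviation of 0.44 around the gene's mean over 5974 genes, and of 0.42 over the 20 members with more than 1 probe set above the filter. This spread holds no variation between cultures. At the brightest probe set 9 members lay lower than 0 by more than 0.44 and 3 lay higher, which is 29.0% and 9.68% of the members, against 23.5% and 20.7% of all genes. Of the 20 members with several probe sets, 7 had all of them below 0 and 2 had all of them above 0. The other 11 had probe sets on both sides. The same shares over all genes were not computed, so nothing is read from these counts. Probe sets below the filter are left out of the ranges that follow, except where their signals are given.

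**Figure D1:**
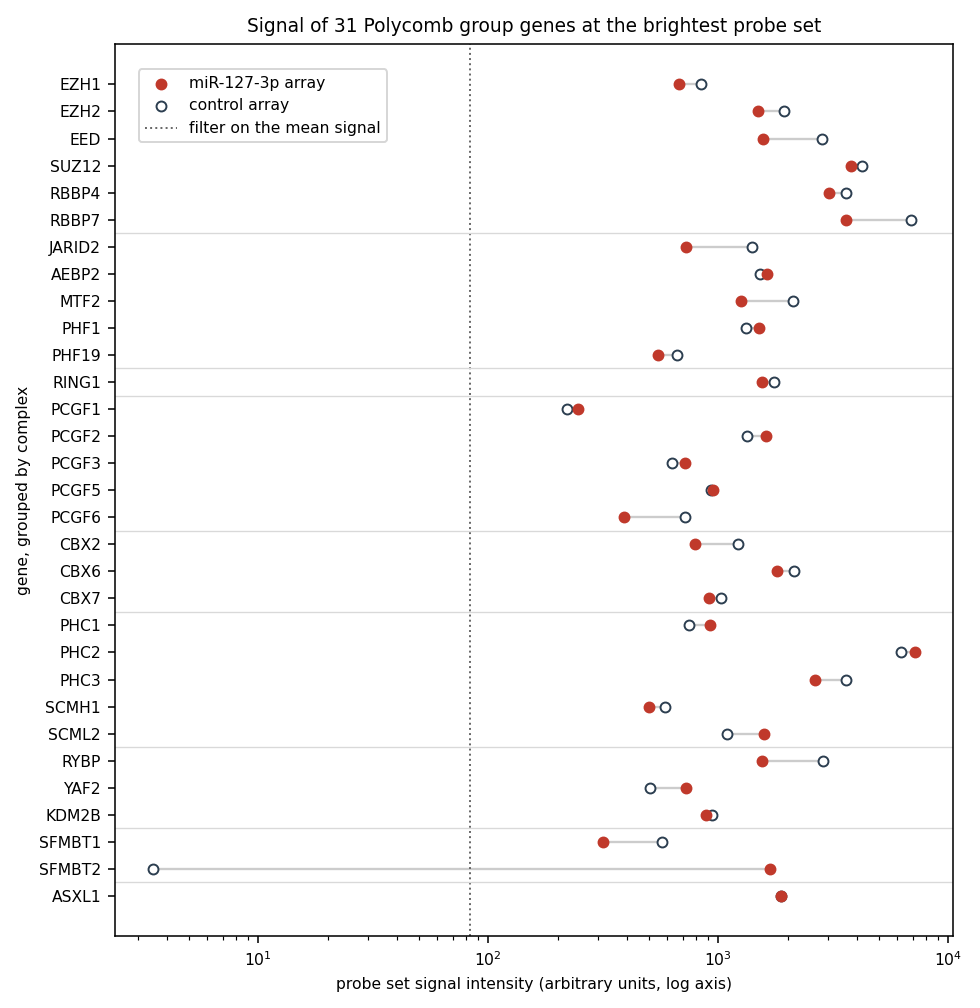
Signal intensity in arbitrary units, on a log axis, of 31 Polycomb group genes at the brightest probe set, with filled points for the miR-127-3p array and open points for the control array; the dotted line is the filter of about 83.0. SFMBT2 is far apart, with 1675 in miR-127-3p cells and 3.47 in control cells, and the other 30 genes lie above the filter on both arrays.

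SFMBT2 was the single member past 2-fold. It encodes a protein with malignant brain tumour repeats that bind methylated histone tails, and in mouse it is imprinted and needed for placental growth. Its brighter probe set gave a signal of 1675 in miR-127-3p cells, against 3.47 in control cells. The control signal lay far below that array's median of 93.9, so the computed log2 ratio of 8.54 is no measured size and only a lower limit can be stated: set against the median, SFMBT2 was higher in miR-127-3p cells by at least 17.5-fold. It passed the filter through the miR-127-3p array alone, and such a gene has to differ. Its other probe set was dim on both arrays, with 6.02 in miR-127-3p cells and 2.83 in control cells. The difference therefore rests on 1 probe set and 1 pair of arrays. In RNA from whole cultures, more cells with a transcript and more transcript per cell cannot be told apart.

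SFMBT1, the paralog of SFMBT2, differed in the opposite direction. It gave 316 in miR-127-3p cells and 570.5 in control cells, a log2 ratio of -0.86. A dimmer SFMBT1 probe set below the filter gave 49.1 in miR-127-3p cells and 112 in control cells. Both SFMBT1 probe sets were thus brighter on the control array. YY1, the human counterpart of the DNA-binding protein that partners Sfmbt in the fly, gave 5631 in miR-127-3p cells and 5874 in control cells, at -0.07, and its 5 probe sets above the filter ranged from -0.64 to -0.07.

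The promoter of SFMBT2 is shown because no other member differed as much. These are the 250 bases before its first listed start, chr10:7411491-7411740 on the minus strand of GRCh38.p14, per RefSeq, with no part capitalised. They held 15 CpG dinucleotides, and the 3 SFMBT2 windows of 300 bases, 250 before a start and 50 after, held 16 to 22. Over the 49 such windows of 31 listed genes, RNF2 and BMI1 among them but not SFMBT1, CBX2, CBX8 or BAP1, the median was 32, against 21 over 22199 windows of protein-coding genes. The arrays carry no measurement at this region.
SFMBT2: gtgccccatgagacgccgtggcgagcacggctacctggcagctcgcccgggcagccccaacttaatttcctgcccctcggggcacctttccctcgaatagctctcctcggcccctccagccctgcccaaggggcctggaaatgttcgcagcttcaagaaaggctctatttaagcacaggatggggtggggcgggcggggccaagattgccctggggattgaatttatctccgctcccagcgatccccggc

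The 6 core PRC2 genes all had ratios below 0, with a median of -0.37, and none reached 2-fold. EZH2, the main methyltransferase, gave 1482 in miR-127-3p cells and 1935 in control cells, a log2 ratio of -0.40 at its only probe set. EED, which binds the methylated histone and stimulates the enzyme, gave 1561 in miR-127-3p cells and 2827 in control cells, at -0.87. RBBP7, a histone-binding subunit, gave 3595 in miR-127-3p cells and 6884 in control cells, at -0.95. EED and RBBP7 each had 1 probe set above the filter and came close to 2-fold, whereas EZH2 lay within the spread of probe sets.

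The other core genes differed less. SUZ12, which holds the complex together, gave 3769 in miR-127-3p cells and 4215 in control cells, with probe sets above the filter at -0.17 and -0.43. EZH1, the second methyltransferase, gave 673 in miR-127-3p cells and 843 in control cells, at -0.34. Its 4 probe sets above the filter ranged from -0.66 to 0.34, so EZH1 had no settled direction. RBBP4, the paralog of RBBP7, gave 3044 in miR-127-3p cells and 3589 in control cells, at -0.25. Of 6 RBBP4 probe sets 5 lay below 0, from -0.81, and 1 was at 0.33. The median of the 6 core genes lay between -0.41 and -0.33 under the planned changes of filter, scaling, pseudocount and probe set choice, and every core gene measured under them stayed below 0, all 6 in each case but 4 where suffixed probe sets were left out.

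PRC2 accessory genes, whose products steer the complex to its sites, split into a lower pair and an even group. JARID2, which helps recruit PRC2, gave 727 in miR-127-3p cells and 1405 in control cells, at -0.96, and a second probe set above the filter was at -0.50. MTF2, a Polycomb-like protein that binds CpG-rich DNA, gave 1252 in miR-127-3p cells and 2123 in control cells, at -0.77. All 5 MTF2 probe sets lay below 0, from -1.51 to -0.45. The lowest, with 190 in miR-127-3p cells and 538 in control cells, passed 2-fold, which 11.9% of all genes did at some probe set in that direction. That share is over genes with fewer or more probe sets than the 5 of MTF2, so it is no matched background. AEBP2, a cofactor that binds nucleosomes, gave 1627 in miR-127-3p cells and 1525 in control cells, at 0.08. PHF1, another Polycomb-like protein, gave 1497 in miR-127-3p cells and 1313 in control cells, at 0.18. AEBP2 and PHF1 each had probe sets on both sides of 0.

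PHF19, the remaining Polycomb-like gene, depended on its probe set. The brightest gave 548 in miR-127-3p cells and 663 in control cells, at -0.29. The other 2 lay at 0.33 and 0.50, so PHF19 was at 0.34 when suffixed probe sets were left out. Over the 11 PRC2 genes, core and accessory, the median was -0.34 and 9 lay below 0.

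**Figure D2:**
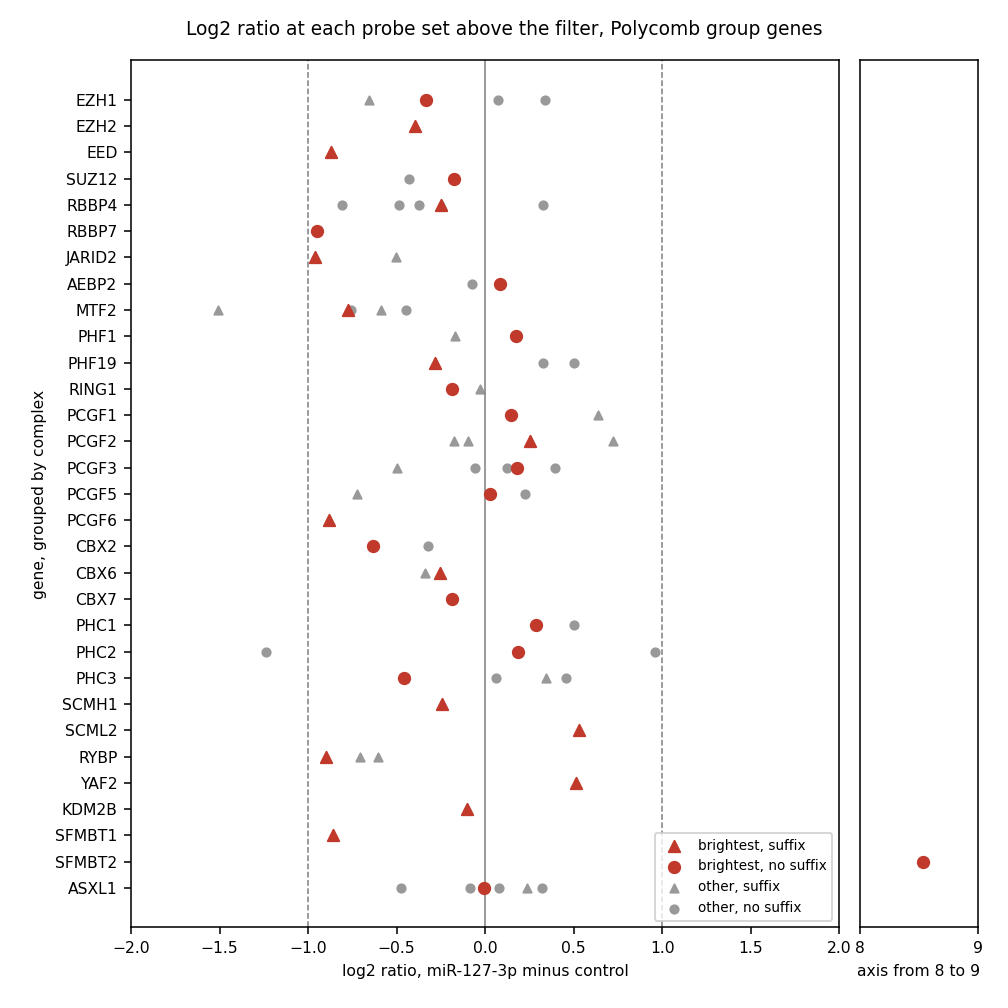
Log2 ratio (miR-127-3p minus control) at each of 75 probe sets of Polycomb group genes above the filter, with large red points for the brightest probe set, small grey points for the others, triangles for probe sets with a cross-match suffix and dashed lines at 2-fold; the narrow right panel runs from 8 to 9. MTF2 and RYBP have every point left of 0, and PHC2 has points from -1.24 to 0.96.

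PRC1 genes lay closer to 0 as a group, with a median of -0.10 over 17 genes, 8 above 0 and 9 below. RING1, a catalytic subunit, gave 1546 in miR-127-3p cells and 1748 in control cells, with probe sets at -0.19 and -0.03. Of the PCGF subunits, which define the kind of PRC1, PCGF1 gave 245 in miR-127-3p cells and 220.1 in control cells, at 0.15, and a second probe set was at 0.64. PCGF2, the close relative of BMI1, gave 1611 in miR-127-3p cells and 1338 in control cells, at 0.26, but 2 of its 4 probe sets lay below 0. These genes differed by less than the spread between probe sets at the brightest one.

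PCGF3 and PCGF5 were nearly level. PCGF3 gave 718 in miR-127-3p cells and 629 in control cells, at 0.18 with 5 probe sets from -0.50 to 0.39. PCGF5 gave 950.0 in miR-127-3p cells and 926 in control cells, at 0.03 with 3 probe sets above the filter from -0.72 to 0.23. PCGF6, the subunit found with MGA and E2F6, stood apart from them with 390.3 in miR-127-3p cells and 715 in control cells, at -0.88. It had 1 probe set, so the agreement of probe sets could not be assessed.

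The 3 CBX genes measured here, readers of methylated histone H3, all had ratios below 0. CBX2 gave 795 in miR-127-3p cells and 1223 in control cells, at -0.63, and its second probe set above the filter was at -0.32. CBX6 gave 1805 in miR-127-3p cells and 2136 in control cells, at -0.25. CBX7 gave 912 in miR-127-3p cells and 1030.5 in control cells, at -0.19. Of the 3 genes, CBX2 alone lay further from 0 than the spread of probe sets.

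Polyhomeotic and SCM proteins polymerise through a shared domain and help compact chromatin. PHC1 gave 916 in miR-127-3p cells and 746 in control cells, at 0.28, with its other probe set at 0.50. PHC2 gave 7146 in miR-127-3p cells and 6237 in control cells, at 0.18. Its other probe sets were at 0.96 and -1.24, the lower from 66.2 in miR-127-3p cells and 156 in control cells. The 66.2 lies below the array median, and set against that median the difference was at least 1.88-fold. PHC3 gave 2637 in miR-127-3p cells and 3595 in control cells, at -0.46, while its 3 other probe sets above the filter lay above 0, up to 0.46. SCMH1 gave 499 in miR-127-3p cells and 586 in control cells, at -0.24, and SCML2, an X-linked relative, gave 1585 in miR-127-3p cells and 1088 in control cells, at 0.53. SCML2 had the highest ratio after SFMBT2 and rested on 1 probe set.

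The paralogs RYBP and YAF2, which take the same place in variant PRC1, lay on opposite sides. RYBP gave 1544 in miR-127-3p cells and 2854 in control cells, at -0.90, and its 3 probe sets above the filter ranged from -0.90 to -0.60. YAF2 gave 725 in miR-127-3p cells and 503 in control cells, at 0.51 at its only probe set above the filter. A dim YAF2 probe set, below the array median on both arrays, gave 30.4 in miR-127-3p cells and 57.0 in control cells, and no direction is read from it. KDM2B, which brings variant PRC1 to unmethylated CpG islands, gave 881 in miR-127-3p cells and 938 in control cells, at -0.10. ASXL1, the partner of the deubiquitinase BAP1, gave 1883 in miR-127-3p cells and 1875 in control cells, at -0.01, with 6 probe sets from -0.48 to 0.32.

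Probe sets whose names carry a suffix can match more than 1 transcript, and among the members they lay lower than the rest. Of 33 suffixed member probe sets 26 were below 0, with a median log2 ratio of -0.29, against 20 of 42 without a suffix, with a median of 0.04. Over all genes the medians were 0.02 with a suffix and -0.02 without. With suffixed probe sets left out, the median of the 19 members that remained was 0.01. Of the 8 members at least 1.5-fold lower, EED, JARID2, PCGF6, RYBP and SFMBT1 had only suffixed probe sets above the filter. RBBP7, MTF2 and CBX2 also had or only had probe sets without a suffix. The part of cross-matching in the lower ratios was not tested.

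**Figure D3:**
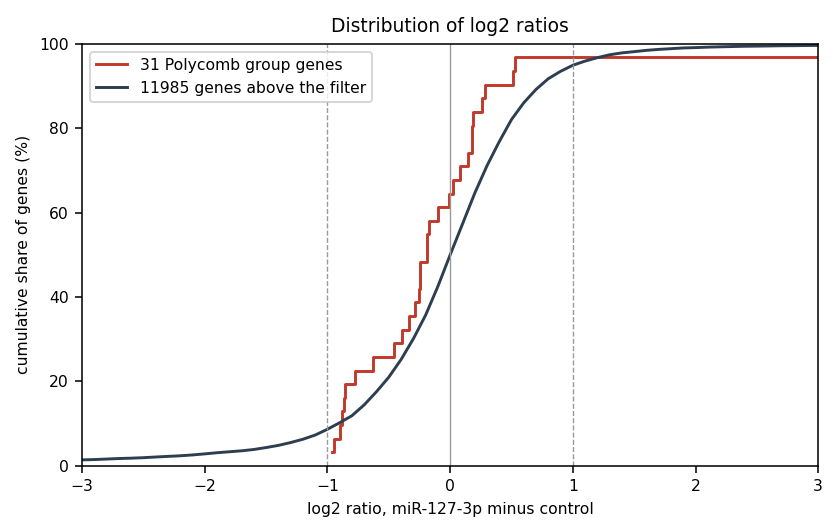
Cumulative share of genes in percent against log2 ratio (miR-127-3p minus control), for 31 Polycomb group genes in red and 11985 genes above the filter in dark blue, with dashed lines at 2-fold and the axis ended at 3. No member lies left of -1, all but SFMBT2 lie left of 0.6, and SFMBT2 lies beyond the axis, at a computed 8.54.

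EZH2 is a known target of E2F factors, which switch on genes for DNA replication, so E2F letters in the promoters of members were searched. The letters TTTGGCGC and TTTCCCGC were looked for on both strands, and 4 of 49 member windows, or 8.16%, held either, against 2.27% of all 35116 windows and 2.79% of those of protein-coding genes. Both words hold a CpG, and member windows had a median of 32 CpG, against 14 over all windows and 21 over protein-coding ones. The 49 windows came from 31 genes. The part of this composition in the share of matches was not tested. The sites are shown with 11 bases on each side, from GRCh38.p14 per RefSeq, because all 4 belong to PRC2 genes. Capitals mark the match. EZH2 lies at chr7:148884272-148884301 on the minus strand and MTF2 at chr1:93079277-93079306 on the plus strand, both just after the start. SUZ12 lies at chr17:31936807-31936836 on the plus strand and PHF19 at chr9:120877322-120877351 on the minus strand, both before it.
EZH2: gggctgccgcgTTTGGCGCtcggtccggtc
MTF2: accggcagtccGCGGGAAAccaaaatggcg
SUZ12: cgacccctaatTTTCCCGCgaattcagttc
PHF19: gtcaataattcGCGGGAAAacgcgaaaaag

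At the brightest probe set these 4 genes had log2 ratios of -0.40 for EZH2, -0.77 for MTF2, -0.17 for SUZ12 and -0.29 for PHF19, the last with 2 probe sets above 0. Letters of YY1, AAGATGGC, were in 5 member windows, or 10.2%, against 2.89% of all windows and 3.53% of those of protein-coding genes. They were in windows of PCGF1, PHC3, PHF19, ASXL1 and RBBP7, whose ratios ran from -0.95 to 0.15. A match is a description of letters and no evidence of binding. Of 14 E2F target genes of the cell cycle, 3 were at least 2-fold lower, or 21.4%, and none higher, against 8.67% and 5.06% of all genes. MCM2, a helicase subunit, was at -1.25, and MKI67, a proliferation marker, at -1.04 with 4 probe sets above the filter from -1.45 to -0.45. CDC25A, a cell cycle phosphatase, was at -1.04. The median of the 14 was -0.18, and 10 lay below 0. The list was chosen with earlier results of these data known, so nothing is read from its shares.

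Further partners of Polycomb complexes passed 2-fold at their brightest probe set at shares near those of all genes. Of 26 such genes above the filter 2 were at least 2-fold higher, or 7.69%, against 5.06% of all genes, and 3 were lower, or 11.5%, against 8.67%. Their median was -0.06. Counting any probe set above the filter, 6 of the 26 were at least 2-fold lower, against 11.9% of all genes. By the same count 2 were higher, against 7.93%. A gene with more probe sets can pass more easily. Their number was not matched to that of all genes, so nothing is read from this count. L3MBTL1, a chromatin-compacting protein with the same kind of repeats as SFMBT2, gave 488 in miR-127-3p cells and 142 in control cells, at 1.76 with 4 probe sets above the filter from 0.87 to 1.76. BCOR, the scaffold of the PRC1 form with PCGF1, gave 349 in miR-127-3p cells and 772 in control cells, at -1.16 with 4 probe sets above the filter from -1.16 to -0.72. For both genes every probe set above the filter lay on the same side.

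MBD5, which can join the deubiquitinase complex of BAP1, was at 1.29, but its probe sets above the filter reached down to -0.30. SCML1, a relative of SCML2, was at -1.06, and EPOP, a PRC2 cofactor, at -1.02 at its only probe set above the filter. OGT, a sugar transferase of the same deubiquitinase complex, gave 3863 in miR-127-3p cells and 7269 in control cells, at -0.92, with 5 probe sets above the filter from -1.35 to -0.76. OGT was chosen for mention after its values were seen.

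Genes that counteract Polycomb silencing passed 2-fold only at dimmer probe sets. All 27 Trithorax group and counteracting genes above the filter were within 2-fold at their brightest probe set, as were 86.3% of all genes. The 27 ratios ran from -0.59 to 0.72, with a median of 0.13 that became -0.06 when all probe sets of a gene were averaged. At another probe set above the filter 3 of them were at least 2-fold lower, against 11.9% of all genes, and 1 was higher, against 7.93%. These were the methyltransferase KMT2A, at -1.47 and at least 2.29-fold against the array median, the remodeller SMARCA4, at -1.35, and the acetyltransferases EP300, at -1.20, and CREBBP, at 1.21, named after their values were seen. The count at another probe set rises with the number of probe sets per gene, so nothing is read from it. KDM6A, which removes the PRC2 mark, gave 431 in miR-127-3p cells and 517 in control cells, at -0.28. KDM6B, with the same activity, gave 376 in miR-127-3p cells and 561 in control cells, at -0.59, with 5 probe sets above the filter from -0.81 to 0.38. Among 17 other silencing genes, 2 passed 2-fold, both lower in miR-127-3p cells, or 11.8%, against 8.67% of all genes. They were the DNA methyltransferases DNMT3B, at -1.64, and DNMT3A, with 343 in miR-127-3p cells and 682 in control cells. A second DNMT3A probe set was at -1.25, and DNMT1 was at 0.12.

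**Figure D4:**
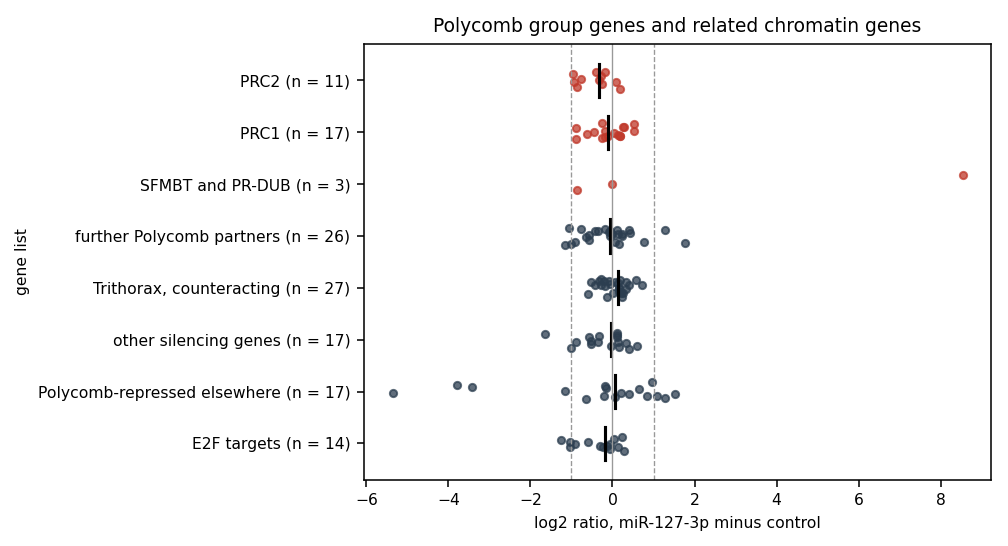
Log2 ratio (miR-127-3p minus control) of Polycomb group genes in red and of 5 related gene lists in dark blue, 1 point per gene at its brightest probe set, with black bars at medians and dashed lines at 2-fold. PRC2, PRC1 and Trithorax genes all lie within 2-fold at this probe set. Genes dim on 1 array are drawn at computed ratios that leave only a lower limit. Among them are SFMBT2, at 8.54, CDKN2A, at -5.36, CDKN1C, at -3.80, and RUNX3, at -3.43.

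Genes that Polycomb complexes are known to silence in other cells differed in both directions. Of 17 above the filter 3 were at least 2-fold higher, or 17.6%, against 5.06% of all genes, and 4 were lower, or 23.5%, against 8.67%. Their median was 0.06. The part of Polycomb silencing in these differences was not tested. All 4 lower genes had a signal below the array median in miR-127-3p cells, so each passed the filter through the control array, as SFMBT2 did through the other, and nothing is read from their count. CDKN2A, a cell cycle inhibitor locus and a classic Polycomb target, gave 37.9 in miR-127-3p cells and 1587 in control cells, at least 19.0-fold lower against the array median. CDKN1C, another inhibitor, was at least 7.03-fold lower at its brightest probe set and at least 2.49-fold lower at a second above the filter. RUNX3, a transcription factor, was at least 5.16-fold lower. IRX3, TBX3 and LHX2, developmental transcription factors, were at 1.52, 1.29 and 1.08, with a second LHX2 probe set at -0.05. Of the HOX genes on the list that passed the filter, HOXD13 was at least 2.20-fold lower and HOXB13 at least 1.58-fold higher, each with the dimmer signal just below its array's median. HOXC10 was at -0.18, and HOXD10 at 0.41 with 3 probe sets above the filter from -0.23 to 1.47. The probe set at 1.47 gave 61.8 in control cells, below that array's median. Set against that median its difference was at least 1.84-fold.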

How the data were processed

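Total RNA of 2 LN229 cultures was labelled with biotin using an Affymetrix 3′ kit, per the labels' protocols. The authors deposited 1 signal intensity per probe set and array. Each array's mean after trimming 2% at each end was 500.1, so both share a scale. How probes were summarised and background corrected is not given in the sources used here. Detection calls were not used.

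Of 54613 non-control probe sets 41091 had 1 gene symbol, 1801 several and 11721 none in the platform annotation. Of the symbols 99.9% were matched by Entrez identifier to RefSeq (GRCh38.p14). From the deposited intensities log2(signal + 1) was computed. Probe sets entered above the 50th percentile of the mean, the brightest stood for its gene, and the median ratio of 0.01 was subtracted. Folds are on this scale, which understates low genes. Where a named gene's signal at its brightest probe set lay below its array's median (83.3 with miR-127-3p, 93.9 in the control), a lower limit against that median is given; this is no detection limit. Genes were counted past 2-fold. All members were named, and up to 3 genes per direction past 2-fold in each related list, with CDKN2A and the HOX genes above the filter. KDM6A, KDM6B, YY1 and DNMT1 were added for their role, OGT, 4 Trithorax genes, CDKN2B and the cell type markers after their values were seen. Members and lists were chosen with earlier results of these data known. Other thresholds, filters, scalings, pseudocounts and probe set choices were tried. Counting was tested on simulated arrays. Python 3.11.15, numpy 2.4.6, pandas 2.3.3 and matplotlib 3.10.9 were used.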

Additional observations from a re-analysis of the deposited data

How the results depend on the processing

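Under 10 changes of threshold, filter, scaling, pseudocount and probe set choice, SFMBT2 remained the only member past 2-fold higher, except with the filter at the 75th percentile. SFMBT2 did not pass that filter, which left 0 members higher and 1 lower, JARID2, of 28. Over all 7824 genes past that filter, 259 were higher and 387 lower. As SFMBT2 was listed with its difference already known, its place is a description. At 1.5-fold 8 members were lower, or 25.8%, against 18.1% of all genes. Counting any probe set above the filter, an alternative chosen after seeing the data, gave 2 of 31 lower, against 11.9% of all genes. These were MTF2 and PHC2, PHC2 at only 1.88-fold against the array median. Such a count rises with the number of probe sets per gene. Over all genes, higher and lower counts were 1743 and 2167 at 1.5-fold, 188 and 472 at 3-fold, 2531 and 3400 with no filter, and 259 and 387 with the filter at the 75th percentile, which follow from the threshold or the number of genes counted. The members' median ranged from -0.26 to 0.01, the highest without suffixed probe sets. With no filter, a 75th percentile filter or values as deposited, only the subtracted median changed and all members counted moved alike. With dim signals at the array median the same held for all but SFMBT2. Of 233 recomputed member values, which include these, 228 moved by less than the probe set spread, so this count is no measure of stability. The others were SFMBT2, at 5.58 with a pseudocount of 32 and at 4.13 with dim signals at the array median, PHF19, at 0.18 as a mean of probe sets and 0.34 without suffixed ones, and PHC3, at 0.10 as a mean. No paired analysis was possible because each group had 1 array. Signals below the array median have no reliable order.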

Other observations

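Of the 88 probe sets of Polycomb group genes 13 did not pass the filter, and 10 of them lay below the array median on both arrays. A CBX2 probe set gave 27.6 in miR-127-3p cells and 2.24 in control cells, and a PHC3 probe set gave 109.9 in miR-127-3p cells and 61.9 in control cells. The SFMBT1 probe set at 49.1 in miR-127-3p cells and 112 in control cells was, of the 13, the brightest on the control array. CDKN2B, a neighbour of CDKN2A, was likewise left out by the filter, with 19.2 in miR-127-3p cells and 341 in control cells at its brightest probe set.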
